A study of Homo sapiens with 6 samples.

Results

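The nuclear receptor superfamily was examined in Calu3 cells, an established human lung adenocarcinoma line, after siRNA against BRD8. Members were taken by gene symbol from a fixed list of 40 receptor genes, and 40 of 40 were present in the deposited table of 26364 genes. Of these, 36 had a mean of at least 10 normalized counts over the 6 libraries and were tested, and 4 lay under it. The groups were 3 libraries from cells given a negative control siRNA and 3 from cells given BRD8 siRNA, each at 20 nmol with a lipid transfection reagent. Both groups therefore share transfection, and the labels give 1 reagent for the knockdown, no time after transfection and no statement that replicates came from separate cultures. The p-values thus reflect differences among these 6 libraries only, and that spread may be technical.

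Nuclear receptors are transcription factors that share a zinc-finger DNA-binding domain and a ligand-binding domain. Bound by hormones, vitamins, bile acids, fatty acids or oxysterols, or acting as orphans without a known hormone, they recruit coactivators or corepressors to hormone response elements, which are often built from the sequence AGGTCA. Many pair with a retinoid X receptor. BRD8 is a bromodomain protein of the NuA4/TIP60 acetyltransferase complex and was first described as a coactivator of nuclear receptors. The receptors, their coregulators, ligand enzymes and target genes were therefore looked at together. Whether BRD8 acts as such a coactivator in these cells was not tested.

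Libraries held 33640814 to 37896467 reads in genes. BRD8 itself was measured at 2751, 2928 and 3067 normalized counts in the control libraries and at 1312, 1084 and 1156 after BRD8 siRNA, a log2 fold change of -1.30 (SE 0.0904, adjusted p = 1.13e-04, limma), although KIF20A shares exon bases with it in antisense and reads carry no strand. All 12 epithelial markers, among them EPCAM and KRT18, were above 10 normalized counts, and their summed level was 408490 to 497296 in controls and 542938 to 598570 after BRD8 siRNA. Of 8 fibroblast markers 2 were above 10, COL1A1 (mean 189 in controls and 162 after BRD8 siRNA) and LUM (28.5 and 54.7). COL1A1 was not called. LUM was called higher (log2 fold change 0.91, adjusted p = 0.0211, limma), though not in every fit with 1 library left out. COL1A2 and THY1 were at 0. Of 5 endothelial markers none was above 10 and their summed level was 4.32 to 14.2, and of 7 leukocyte markers 4 were above 10, with a summed level of 1380 to 1770 in controls and 1853 to 2164 after BRD8 siRNA, most of it CD68. Whether the shifts in the epithelial and leukocyte sums have a part in the receptor results was not tested.

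Control library 2 stood apart from control libraries 1 and 3 along the second principal component (20.6% of variance, beside 53.1% along the first, which separated the treatments). Among the receptors, its log2 difference from the mean of the other controls fell with the length of the longest annotated transcript, with a Spearman rho of -0.56 across 36 receptors and -0.53 across 14836 genes. It rose with GC content to a similar degree (0.51 and 0.46). These genes share the same 3 libraries and are not independent replicates. The 6 receptors with transcripts of at least 7000 bases (THRB, PPARA, RORA, NR2C2, NR3C1 and NR6A1) were all lower in that library, by a median of -0.46, while 1 of the 10 receptors under 3000 bases was lower. That 1 was NR1I3, which rests on few reads. Where a receptor's call changed without control library 2, or its value moved by over 1.5 times, both values are given below.

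**Figure D1:**
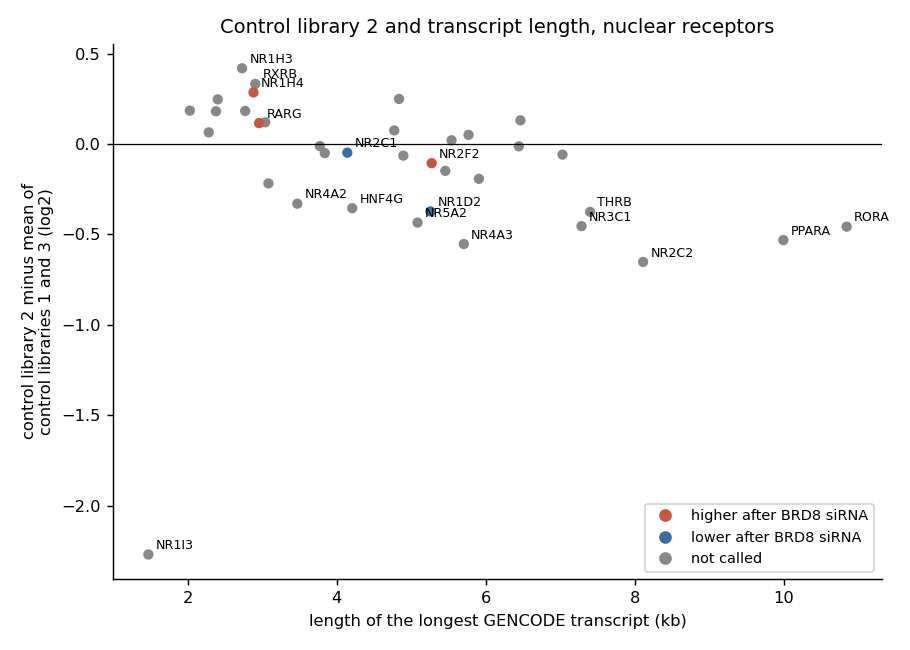
Log2 difference of control library 2 from the mean of control libraries 1 and 3 (vertical axis) against the length of the longest transcript in kilobases (horizontal axis) for the 36 tested receptors, coloured by call. Receptors with long transcripts such as PPARA, RORA and NR2C2 lie below 0, and the lowest point is the weakly covered NR1I3 at -2.27.

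After BRD8 siRNA 5 of the 36 tested receptors passed an adjusted p of 0.05. NR1H4, NR2F2 and RARG rose, and NR2C1 and NR1D2 fell. That is 13.9% of the receptors, against 19.0% of all 15354 genes tested. The 3 that rose stand against a background of 10.1% of genes higher, and the 2 that fell against 8.93% lower. The share among receptors was thus no higher than among all genes. The median log2 fold change was 0.09 over the receptors, with 21 above 0 and 15 below, and -0.01 over all genes. Groups did not overlap for 15 of 36 receptors, against 36.8% of all genes. In a bulk sample, fewer cells expressing a gene and less RNA per cell cannot be told apart.

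The edgeR quasi-likelihood test on recovered whole reads, which called 19.3% of genes, gave 6 receptors, the same 5 and RXRA. In the authors' deposited table, where 20.4% of genes have an adjusted p under 0.05, 7 receptors passed, the same 5 with HNF4A and NR5A2. Without control library 2, limma called 11 receptors, 4 higher and 7 lower, where 34.1% of all genes were called, and without control library 3 it called 3, 2 higher and 1 lower, where 8.86% were. Once a trend on transcript length and GC content was removed, 5 were higher and 6 lower, against 3 and 2, while the share of all genes called was 33.4%.

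**Figure D2:**
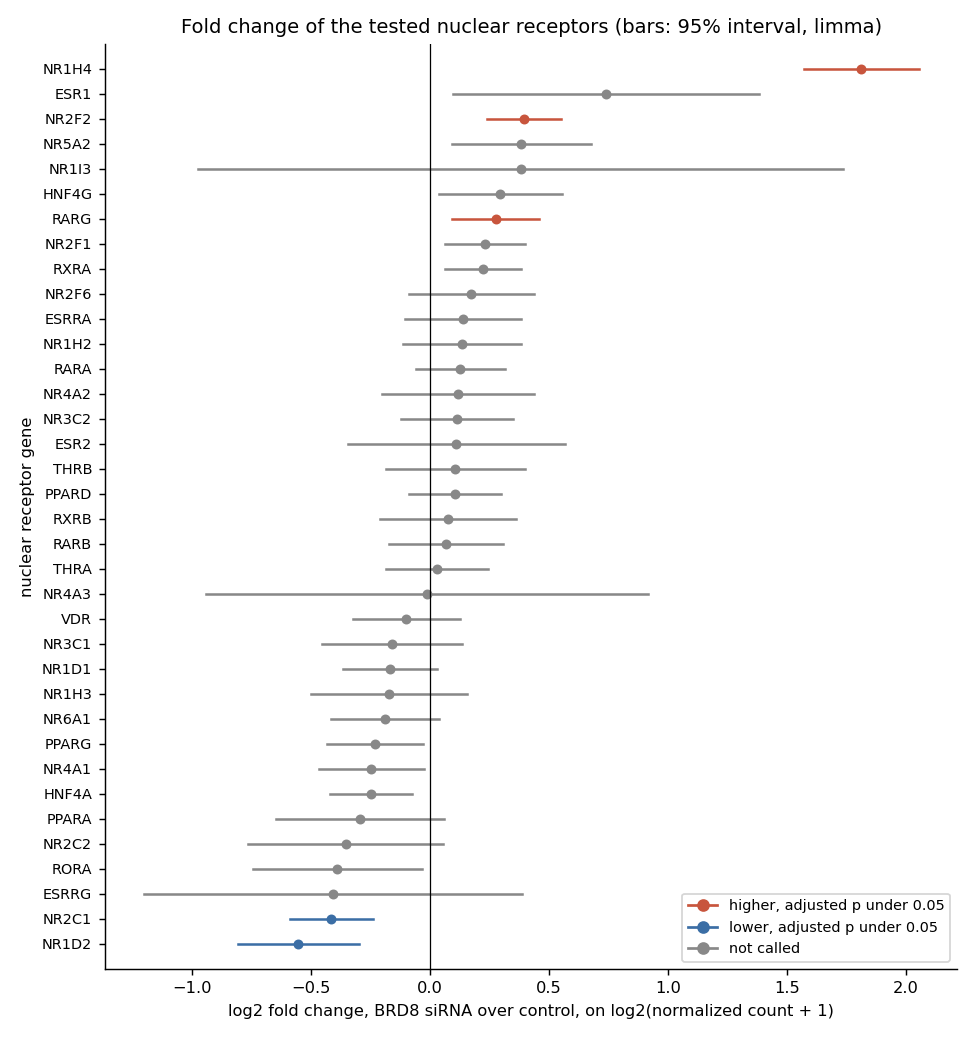
Log2 fold change of each of the 36 tested receptors after BRD8 siRNA over control, on the log2(normalized count + 1) scale, with bars for the 95% interval from limma. NR1H4 lies at 1.81, apart from the rest, and the other 4 called receptors lie between -0.55 and 0.39.

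Promoter sequence is shown for 3 of the called receptors, NR1H4, NR1D2 and NR2C1, because the 250 bases before a RefSeq start of each hold a half-site or an E-box outside annotated exons. Capitals mark AGGTCA on either strand (TGACCT on the strand shown), the receptor half-site, or CACGTG, the E-box bound by CLOCK with BMAL1, which reads the same on both strands. Coordinates are from GRCh38.p14, not from the build of the deposited counts. The stretch before NR1H4 is chr12:100503110-100503359 on the plus strand, that before the second NR1D2 start is chr3:23945871-23946120 on the plus strand, and that of NR2C1 is chr12:95073704-95073868 on the minus strand.
NR1H4: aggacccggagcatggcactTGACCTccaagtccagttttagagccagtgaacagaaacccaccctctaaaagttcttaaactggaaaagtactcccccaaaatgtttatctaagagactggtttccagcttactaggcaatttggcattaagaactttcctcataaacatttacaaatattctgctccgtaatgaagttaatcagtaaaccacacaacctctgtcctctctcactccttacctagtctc
NR1D2: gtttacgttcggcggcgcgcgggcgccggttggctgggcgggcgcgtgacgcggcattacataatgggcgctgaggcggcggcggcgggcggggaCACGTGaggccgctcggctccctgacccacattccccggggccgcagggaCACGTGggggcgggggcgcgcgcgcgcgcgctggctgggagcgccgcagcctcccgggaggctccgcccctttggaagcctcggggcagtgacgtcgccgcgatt
NR2C1: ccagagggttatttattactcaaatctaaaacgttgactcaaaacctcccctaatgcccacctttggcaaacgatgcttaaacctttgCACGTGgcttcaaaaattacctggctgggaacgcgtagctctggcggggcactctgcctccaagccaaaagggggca
The NR1H4 stretch is 42% G and C and the NR1D2 stretch 76.8%. Windows were found for 36 of 40 receptors, 89 windows in all. AGGTCA was present in 14.6% of the receptor windows and 12.1% of all 35116 windows, and CACGTG in 5.62% and 6.34%. The receptors' windows thus held these letters about as often as all windows. Windows of the same gene can overlap, so a single site can count in more than 1 window, as for PPARG and ESR2. The receptors with CACGTG were ESR2, NR1D2, NR2C1 and NR2F2, whose own windows lie wholly in its annotated exons and are not printed. Neither letter string was in the RARG window, and direct repeats of AGGTCA spaced by 1 or 4 bases were in no receptor window. A match is a description of these letters, not a binding site.

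Among the lipid-sensing receptors, NR1H4 encodes the farnesoid X receptor (FXR), the sensor of bile acids. Its level was 193, 238 and 196 normalized counts in control libraries 1 to 3 and 767, 719 and 714 in BRD8 siRNA libraries 1 to 3. Every BRD8 siRNA library lay far above every control, and the groups did not overlap. The mean rose from 209 ± 24.7 to 733.5 ± 29.3 (SD, n = 3 each), 3.51-fold, with a log2 fold change of 1.81 (SE 0.106, 95% interval 1.57 to 2.05, adjusted p = 6.11e-05). Per kilobase of transcript it went from 72.5 to 254 normalized counts, from the 27th to the 13th of the 40 receptors. NR1H4 was called under all 19 alternative settings, with a highest adjusted p of 0.00117 and a log2 fold change of 1.76 to 1.91.

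The other lipid-sensing receptors did not pass. PPARG, the receptor of fatty acids and thiazolidinediones, was at 2352, 2735 and 2461 in controls and at 2344, 2040 and 2051 after BRD8 siRNA. BRD8 siRNA library 1 lay just below the lowest control and the other 2 well below it. The log2 fold change was -0.23 (95% interval -0.43 to -0.03, adjusted p = 0.107). PPARG passed in 2 of 19 alternatives, both with the length and GC trend removed (adjusted p 0.0149 to 0.294 over all 19). PPARA, which drives fatty acid oxidation, was at 2189, 1421 and 1926 against 1551, 1303 and 1613, with control library 2 inside the range of the knockdown libraries. Its log2 fold change was -0.29 (adjusted p = 0.228), and without control library 2 it was -0.47 (adjusted p = 0.00431, against 0.0237 to 0.54 over the other alternatives). PPARD had a log2 fold change of 0.11, and the oxysterol receptors NR1H2 (LXR beta) and NR1H3 (LXR alpha) had 0.13 and -0.17, all with overlapping groups. NR1H3 was -0.031 without control library 2, which was its highest control. NR1H3 passed in 1 of 19 alternatives (adjusted p 0.0334 to 0.871 over all 19). That fit used the replicate number as a block with the length and GC trend removed, where 35.7% of all genes were called.

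Of the retinoid receptors, RARG, a receptor of all-trans retinoic acid, was at 980.0, 1093 and 1038 in controls and 1316, 1257 and 1195 after BRD8 siRNA. All 3 knockdown libraries lay above all 3 controls, by a narrow margin. The mean rose from 1037 ± 56.3 to 1256 ± 60.7, with a log2 fold change of 0.28 (SE 0.0799, 95% interval 0.10 to 0.46, adjusted p = 0.0424). This call was near the threshold and was made in 10 of 19 alternatives. Leaving out control library 1, 2 or 3 gave adjusted p values of 0.13, 0.0104 and 0.143, and leaving out BRD8 siRNA library 1, 2 or 3 gave 0.123, 0.128 and 0.0834. With single libraries left out the log2 fold change stayed between 0.24 and 0.32. After removal of the length and GC trend it was smaller, 0.17 (adjusted p = 0.0593).

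RXRA, the common heterodimer partner, was at 1044, 1062 and 1008 in controls and 1206, 1219 and 1209 after BRD8 siRNA. The groups did not overlap, and the knockdown libraries lay within a narrow band, yet the log2 fold change of 0.22 (95% interval 0.06 to 0.38) had an adjusted p of 0.0571. RXRA was called in 6 of 19 alternatives, among them the fit without control library 2 (0.24, adjusted p = 0.0273, within a range of 0.0211 to 0.22). RARA, RARB and RXRB had log2 fold changes of 0.13, 0.07 and 0.08 with overlapping groups, and RXRG had 1 read in all 6 libraries. All 5 tested retinoid receptors thus had an estimate above 0, with a median of 0.13, and RARG alone passed in this fit. The estimate of RXRB was below 0 after removal of the length and GC trend (-0.024) and without control library 1 (-0.043), and that of RARB was below 0 (-0.0023) without control library 2, where RXRB was 0.19.

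**Figure D3:**
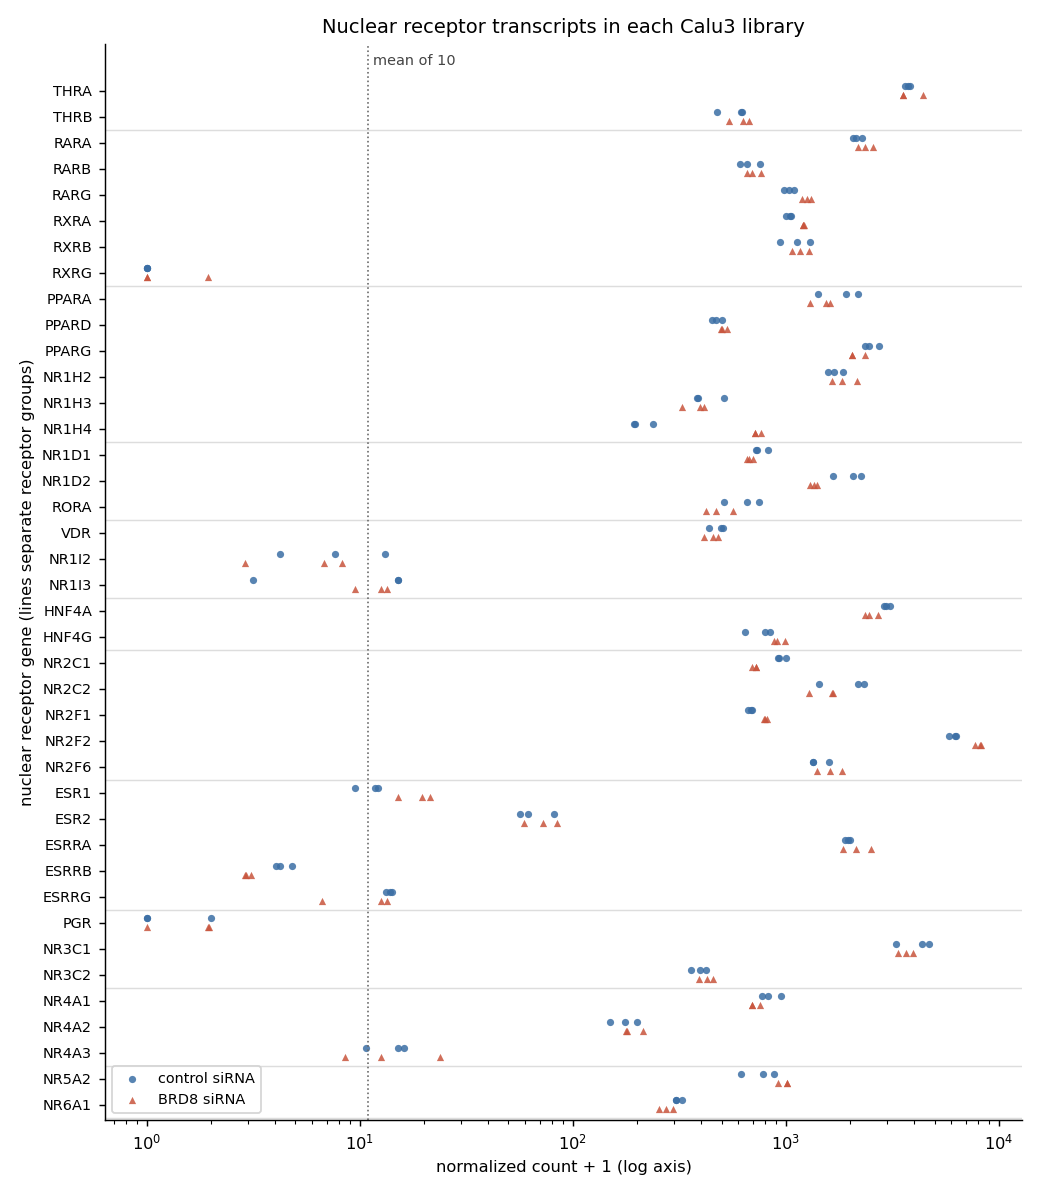
Normalized count plus 1 of each of the 40 receptors in each library, on a log axis, with control siRNA as circles and BRD8 siRNA as triangles, and a dotted line at a mean of 10. The 3 BRD8 siRNA points of NR1H4 lie to the right of its controls, and PGR, RXRG, ESRRB and NR1I2 lie near or below the dotted line.

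Orphan receptors of the COUP and testicular groups moved in both directions. NR2F2 encodes COUP-TFII, a repressor and activator of development in many tissues. It was at 6258, 5833 and 6298 in controls and 7745, 8237 and 8178 after BRD8 siRNA, with no overlap. The mean rose from 6130 ± 258 to 8053 ± 269 (1.31-fold), a log2 fold change of 0.39 (SE 0.0685, 95% interval 0.24 to 0.55, adjusted p = 0.00549). All 19 alternatives called it, with a highest adjusted p of 0.0347. Its relative NR2F1 (COUP-TFI) was at 694, 666 and 686 against 816, 797 and 791. The NR2F1 groups did not overlap either, but its log2 fold change of 0.23 had an adjusted p of 0.0599 and passed in 1 of 19 alternatives, quantile normalization (0.047, against 0.0519 to 0.182 over the others). NR2F6 had a log2 fold change of 0.17 with overlapping groups.

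NR2C1, which encodes testicular receptor 2 (TR2), was at 1002, 930 and 922 in controls and 725, 694 and 723 after BRD8 siRNA. Every knockdown library lay below every control. The mean fell from 951 ± 44.1 to 714 ± 17.2, a log2 fold change of -0.41 (SE 0.0774, 95% interval -0.59 to -0.24, adjusted p = 0.00767). All 19 alternatives called it, with a highest adjusted p of 0.0393. NR2C2, which encodes its partner TR4, was at 2327, 1438 and 2195 against 1645, 1289 and 1665. Control library 2 lay among the knockdown libraries, and the log2 fold change of -0.35 did not pass (adjusted p = 0.213). Without control library 2 the NR2C2 value was -0.57 (adjusted p = 0.00209, against 0.00708 to 0.491 over the other alternatives), and 10.1% of the NR2C2 exon bases overlap MRPS25 on the opposite strand.

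The circadian receptors bind the same response elements, where the REV-ERBs repress and RORA activates. NR1D2, which encodes REV-ERB beta, was at 2262, 1671 and 2069 in controls and 1361, 1297 and 1405 after BRD8 siRNA. The controls were spread, with control library 2 lowest, but all lay above the knockdown libraries. The mean fell from 2001 ± 301 to 1354 ± 54.0, a log2 fold change of -0.55 (SE 0.112, 95% interval -0.81 to -0.30, adjusted p = 0.0104). It was called in 18 of 19 alternatives. The exception was the fit without control library 3 (adjusted p = 0.0524, against 9.36e-05 to 0.0424 over the others), and without control library 2 the log2 fold change was -0.68.

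RORA was at 749, 512 and 660 in controls and 423, 471 and 565 after BRD8 siRNA, with control library 2 below the highest knockdown library. Its log2 fold change was -0.39 (adjusted p = 0.119), and -0.54 without control library 2 (adjusted p = 0.00594, against 0.0636 to 0.315 over the other alternatives). NR1D1, which encodes REV-ERB alpha, was at 735, 827 and 723 against 704, 673 and 655. These groups did not overlap, and the log2 fold change of -0.17 did not pass (adjusted p = 0.219). It was -0.11 without control library 2, though it was -0.28 after removal of the length and GC trend (adjusted p = 0.00838, against 0.011 to 0.435 over the other alternatives). The last exon of NR1D1 lies opposite that of THRA, with 263 shared bases, 9.49% of the NR1D1 exon bases, so reads of the pair cannot be fully told apart. All 3 circadian receptors had an estimate below 0, with a median of -0.39.

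Both hepatocyte nuclear factor 4 receptors, regulators of liver and gut epithelium, were expressed, with estimates of opposite sign. HNF4A was at 2903, 2960.4 and 3072 in controls and 2707, 2367 and 2469 after BRD8 siRNA. The groups did not overlap, and the log2 fold change was -0.25 (95% interval -0.42 to -0.07, adjusted p = 0.0532). HNF4A passed in 8 of 19 alternatives, among them the authors' deposited table (adjusted p = 0.0361), the fit without control library 2 (0.0274) and the fit without BRD8 siRNA library 1 (0.0477), over a range of 0.0117 to 0.202. HNF4G was at 845, 642 and 799 against 912, 885 and 996, without overlap, and its log2 fold change of 0.30 had an adjusted p of 0.105. HNF4G was 0.18 without control library 2, its lowest control, and passed in 3 of 19 alternatives, each with the trend removed or the replicate number as a block (0.00238 to 0.284 over all 19). NR5A2, the liver receptor homolog LRH-1, was at 877, 613 and 784 against 1009, 917 and 1015. Its control library 2 was the lowest, and its log2 fold change of 0.39 had an adjusted p of 0.0687. NR5A2 passed in 6 of 19 alternatives, among them the fit without control library 1 (0.0354, within a range of 0.000954 to 0.187), and it was 0.24 without control library 2.

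Steroid receptors did not pass. NR3C1, the glucocorticoid receptor, was at 4719, 3306 and 4346 in controls and 3669, 3379 and 3942 after BRD8 siRNA. Control library 2 was the lowest of all 6, and the log2 fold change was -0.16 (95% interval -0.45 to 0.14, adjusted p = 0.442). Without that library it was -0.31 (adjusted p = 0.0118, against 0.21 to 0.829 over the other alternatives). NR3C2, the mineralocorticoid receptor, had 0.12 with overlapping groups (0.051 without control library 2), and the progesterone receptor PGR had 3 reads in all libraries.

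ESR1, estrogen receptor alpha, was low, at 8.53, 10.8 and 11.2 in controls and 18.7, 14.2 and 20.3 after BRD8 siRNA. The groups did not overlap, but the 95% interval of its log2 fold change of 0.74 ran from 0.10 to 1.38 (adjusted p = 0.104). It passed in 1 of 18 alternatives, the fit without a variance trend (adjusted p = 0.0283, against 0.0637 to 0.283 over the others). ESR2 had a mean of 65.6 in controls and 70.9 after BRD8 siRNA (log2 fold change 0.11, and 0.062 without control library 2). ESRRA, a regulator of mitochondrial genes, had a log2 fold change of 0.14, and ESRRG, at 12.8 and 9.92, had -0.41 with a 95% interval of -1.20 to 0.39. For these last 3 the groups overlapped.

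The thyroid hormone receptors THRA and THRB had log2 fold changes of 0.03 (95% interval -0.18 to 0.24) and 0.11 (-0.19 to 0.40). THRA was below 0 after removal of the length and GC trend (-0.021) and without BRD8 siRNA library 1 (-0.072). Without control library 2 THRA was 0.008 and THRB below 0 (-0.017). THRB passed in 1 of 19 alternatives (adjusted p 0.0498 to 0.921 over all 19). That fit used the replicate number as a block with the length and GC trend removed, where 35.7% of all genes were called. The vitamin D receptor VDR had -0.10 (-0.32 to 0.13). NR1I3, the constitutive androstane receptor (CAR), at 14.2, 2.16 and 14.2 against 12.5, 8.53 and 11.6, had 0.38 with a 95% interval of -0.97 to 1.74, and -0.37 without control library 2. These 4 receptors had overlapping groups. Of the immediate-early orphans, NR4A1 was at 849 ± 90.6 against 714 ± 35.6 without overlap (-0.25, adjusted p = 0.115), and NR4A2 (0.12) and NR4A3 (-0.01) overlapped. Without control library 2 these 3 were -0.16, 0.0096 and -0.20. NR4A1 passed in 2 of 19 alternatives, both with the length and GC trend removed (adjusted p 0.0092 to 0.277 over all 19). NR6A1 was at 312 ± 12.5 against 274 ± 20.5, without overlap, at -0.19 (adjusted p = 0.227).

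Near the threshold of 10, NR1I3 had a mean of 10.2 in controls and 10.9 after BRD8 siRNA and was tested. NR1I2, the pregnane X receptor (PXR), was at 7.36 ± 4.52 and 4.99 ± 2.78 and was not tested, nor was ESRRB at 3.36 ± 0.386 and 1.97 ± 0.0966. For scale, 3 reads in a library correspond to 2.84 to 3.24 normalized counts.

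Per kilobase of the longest annotated transcript, the most abundant receptor transcripts in control cells were PPARG at 1240.1 ± 97.1 normalized counts and NR2F2 at 1162 ± 48.8, which lay within their spread of each other. ESRRA followed at 855 ± 25.2, THRA at 764 ± 22.1, NR1H2 at 717 ± 56.8, RARA at 711 ± 35.7, NR2F6 at 593 ± 60.2, NR3C1 at 566 ± 101 and HNF4A at 462 ± 13.3. From THRA to RARA, and from NR2F6 to NR3C1, neighbours lay within 1 SD of each other. After BRD8 siRNA, NR2F2 was first at 1527 ± 50.9 and PPARG second at 1057 ± 85.1.

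**Figure D4:**
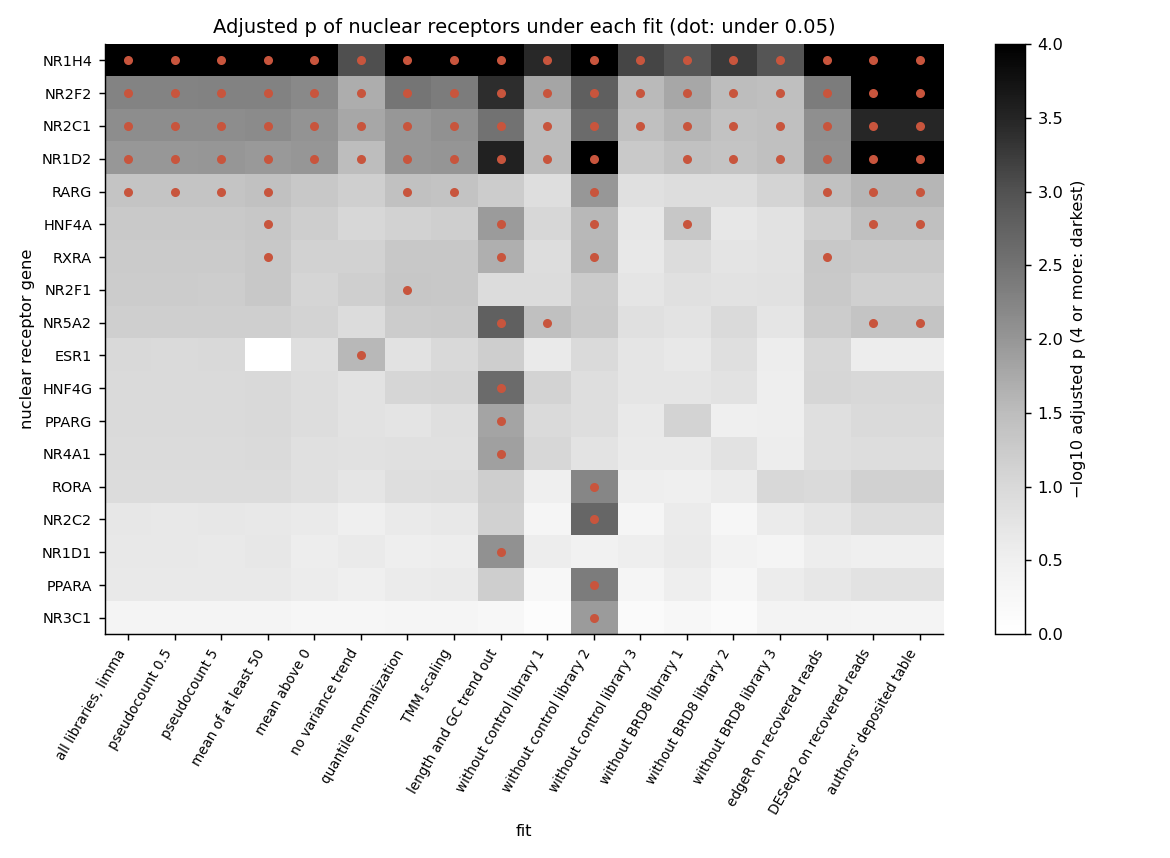
Adjusted p (shade, as -log10, darkest at 4 or more) of the 18 receptors called under at least 1 of the fits shown, in the limma fit on all libraries and in 17 alternatives, with a dot where it was under 0.05. NR1H4, NR2F2 and NR2C1 carry a dot in every column, and PPARA, NR2C2, RORA and NR3C1 carry one in the column without control library 2 alone of those shown.

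Coregulators, which receptors recruit to chromatin, were measured from a list of 46 genes, of which 45 were tested. Of these 1 rose and 4 fell (11.1%, against 19.0% of all genes), with a median log2 fold change of -0.14. Among 29 tested coactivators 3 fell and 26 did not pass (10.3% called, against 19.0% of all genes), with 23 estimates below 0. Their median was -0.16, against -0.01 over all genes. After removal of the length and GC trend these medians were -0.11 and -0.03. With single libraries left out, the coactivator median ran from -0.20 (control library 2) to -0.09 (control library 1). MED14, the Mediator subunit that joins its modules, was at 3538, 2577 and 3473 in controls and 1892, 1716 and 2068 after BRD8 siRNA, a log2 fold change of -0.75 (adjusted p = 0.00548) that passed without each library in turn. NCOA7, an estrogen receptor-associated coactivator (-0.39, adjusted p = 0.0146), did not pass without control library 1 or 3 or BRD8 siRNA library 1 or 2 (adjusted p 0.0522 to 0.0714). SMARCD1, a SWI/SNF subunit (-0.37, adjusted p = 0.0232), did not pass without control library 1 or 3 or BRD8 siRNA library 2 or 3 (0.0593 to 0.0972). The number of coactivators lower was 14 without control library 2, where 1 also rose and 34.1% of all genes were called. It was 1 without control library 1, control library 3 or BRD8 siRNA library 2, where 12.2%, 8.86% and 10.2% of all genes were. After removal of the length and GC trend, where 33.4% of all genes were called, it was 10.

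Of 16 tested corepressors 1 rose and 1 fell (12.5% called, against 19.0% of all genes). CTBP2 rose (3208 ± 44.2 to 4198 ± 153, log2 fold change 0.39, adjusted p = 0.00514), with 31.2% of its exon bases overlapping ZRANB1 on the opposite strand. RCOR1, the CoREST scaffold, fell (-0.43, adjusted p = 0.0292) but did not pass with any single library left out other than control library 2 (0.0555 to 0.127). Without control library 2, where 34.1% of all genes were called, 4 corepressors fell. The classical receptor corepressor NCOR1 was on the list and did not pass.

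Of 37 tested genes that make, store, carry or clear receptor ligands 19 passed (51.4%, against 19.0% of all genes). Of these 14 rose and 5 fell, with a median log2 fold change of 0.12. The list was chosen with earlier results of these data known, so this share is no independent support. SULT1E1, the estrogen sulfotransferase, was at 252, 254 and 247 in controls and 896, 889 and 945 after BRD8 siRNA, a log2 fold change of 1.85 (adjusted p = 1.25e-05). ALDH1A1, which makes retinoic acid, was at 585, 651 and 621 against 1922, 1570.4 and 1615 (1.45, adjusted p = 1.01e-04). In both genes every knockdown library lay above every control. Of the SULT1E1 exon bases, 24.1% overlap AC108941.2 on the same strand. SRD5A3, a steroid 5-alpha-reductase family member, rose from 490.3 ± 30.9 to 1173 ± 50.9 (1.26), and CH25H, which makes 25-hydroxycholesterol, from 47.9 ± 4.29 to 115 ± 14.4 (1.25).

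Within the retinoid enzymes, RDH10, which makes retinal, rose (0.66, adjusted p = 0.00153), whereas ALDH1A3 (-0.70, adjusted p = 0.0013) and LRAT, which stores retinol as esters (-0.45, adjusted p = 0.00816), fell. The vitamin D 25-hydroxylase CYP2R1 rose (0.50), as did HSD17B2, which inactivates estradiol (0.88). The other 3 that fell were HSD17B12 (-0.38, not passing without control library 3, adjusted p = 0.0579), HSD17B11 (-0.25, not passing with any library left out other than control library 2, 0.0589 to 0.106) and the thyroid hormone transporter SLC16A10 (-1.53, not passing without control library 1 or 3 or BRD8 siRNA library 2 or 3, 0.0923 to 0.13). Of the 19 called genes, 12 passed without each library in turn. The number lower was 3 without control library 1 (12.2% of all genes called) or BRD8 siRNA library 2 or 3 (10.2% each). It was 2 without control library 3 (8.86%). AKR1C1, AKR1C2 and AKR1C3 are close copies whose reads could be split between them.

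**Figure D5:**
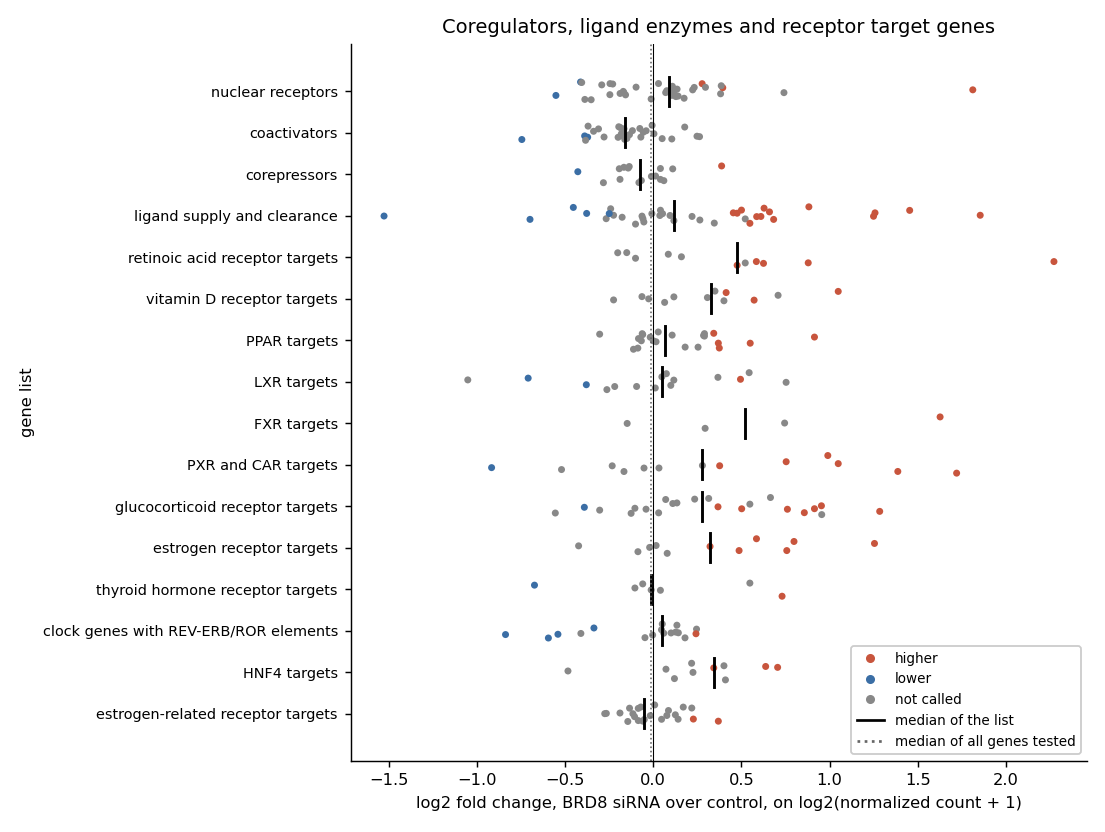
Log2 fold change of every tested gene of each list (points, coloured by call), with the list's median as a bar and the median of all tested genes as a dotted line. The ligand list holds 14 higher and 5 lower genes, and the median of the retinoic acid receptor targets lies at 0.48, to the right of the dotted line.

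Target genes of the receptors, taken from textbook lists of 201 genes, were tested for 158. Of these 38 rose and 9 fell (29.7%, against 19.0% of all genes), with a median log2 fold change of 0.10. The lists were chosen with earlier results of these data known. This share and those of the single lists below are therefore no independent support. Leaving out control library 1, where 12.2% of all genes were called, gave 5 lower. Leaving out control library 3, BRD8 siRNA library 2 or BRD8 siRNA library 3, where 8.86% to 10.2% were, gave 4. Lists share some genes, such as ANGPTL4 and PDK4. FXR targets were of interest beside NR1H4, but 4 of 8 were tested and 1 passed (25%, against 19.0% of all genes). FETUB, a protease inhibitor induced by FXR in liver, rose from 6.27 ± 3.12 to 20.3 ± 4.21 (1.63, adjusted p = 0.021), at few reads. Its mean over all libraries, 13.3, reached 10 only through the BRD8 siRNA libraries, so it entered the test through the group where it was high. FETUB did not pass without control library 3 or any 1 of the BRD8 siRNA libraries (0.0535 to 0.0888). ABCB11, the bile salt export pump, was at 37.0, 33.5 and 21.3 against 60.3, 43.6 and 49.3, without overlap (0.74, adjusted p = 0.0673). SLC51A had 0.29 and FABP6 -0.15, and neither passed. KNG1, at 0.948, 1.08 and 4.07 against 9.36, 11.4 and 10.6, was under the mean of 10, as were SLC51B, FGF19 and ABCB4. Without control library 2, where 34.1% of all genes were called, 2 of the FXR targets rose.

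Of 11 tested retinoic acid receptor targets 5 rose (45.45% called, against 19.0% of all genes) and 6 did not pass. The 5 passed without each library in turn. RARRES2, which encodes chemerin, was at 37.0, 20.5 and 32.5 in controls and 156, 151 and 129 after BRD8 siRNA (2.27, adjusted p = 4.9e-04). TGM2, a transglutaminase, rose from 11126 ± 257 to 16683 ± 292 (0.58), RARRES1 by 0.63 and RARRES3 by 0.88 on the log2 scale, and CRABP2, the retinoic acid carrier, by 0.48. All groups of these 5 stood apart. After removal of the length and GC trend, where 33.4% of all genes were called, 2 other targets fell.

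Of 13 tested PXR and CAR targets 6 rose and 1 fell (53.85% called, against 19.0% of all genes). CYP3A5, a drug-metabolizing cytochrome, was at 203, 173 and 200.2 against 535, 487 and 485 (1.39, adjusted p = 1.51e-04). CYP2C8 (1.72) and CYP2C19 (0.75) rose too, though reads of such near copies could be split. Of the CYP2C19 exon bases, 37.3% overlap AL583836.1 on the same strand. UGT1A1, which shares exons with the other UGT1A genes, fell (-0.92, adjusted p = 0.0365). It did not pass without control library 1 or 3 or BRD8 siRNA library 2 or 3 (0.0674 to 0.146). Without BRD8 siRNA library 1, where 12.9% of all genes were called, 2 of the targets were lower. The receptor NR1I2 itself was under the threshold and NR1I3 close to it.

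Of 12 tested VDR targets 3 rose (25% called, against 19.0% of all genes). KLK6, a secreted protease, rose from 4630 ± 642 to 6858 ± 603 (0.57, adjusted p = 0.0082). CYP3A4 (1.05, adjusted p = 0.0192) did not pass without control library 3 or any 1 BRD8 siRNA library (0.0536 to 0.0717), and IGFBP3 (0.41, adjusted p = 0.0209) did not without control library 3 or BRD8 siRNA library 2 or 3 (0.0898 to 0.102). Leaving out control library 2 gave 5, where 34.1% of all genes were called. Leaving out control library 3, BRD8 siRNA library 2 or BRD8 siRNA library 3 gave 1, where 8.86% to 10.2% were.

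Of 22 tested glucocorticoid receptor targets 7 rose and 1 fell (36.4% called, against 19.0% of all genes). NR3C1 itself was not called. SGK1, a kinase of sodium transport, was at 142, 145 and 148 against 354, 352 and 358 (1.28, adjusted p = 1.34e-04), and the MAP kinase phosphatase DUSP1 rose from 735 ± 55.7 to 1244 ± 43.0 (0.76). NFKBIA, the inhibitor of NF-kB, rose by 0.50 on the log2 scale. TSC22D3, which encodes the glucocorticoid-induced leucine zipper GILZ, instead fell (-0.39, adjusted p = 0.0337), but not past the threshold without control library 1 or 3 or BRD8 siRNA library 2 or 3 (0.0635 to 0.123). Without control library 2, where 34.1% of all genes were called, 11 rose and 2 fell. Without control library 1 or 3 or BRD8 siRNA library 2 or 3, the count was 5 higher and none lower. In these fits 8.86% to 12.2% of all genes were called. Of the 8 called targets, 5 passed without each library in turn.

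Estrogen receptor targets rose in 6 of 11 tested (54.55% called, against 19.0% of all genes). Among them was PDZK1, a scaffold of apical transporters (486 ± 34.5 to 845 ± 65.6, log2 fold change 0.80, adjusted p = 0.00107). CA12, a carbonic anhydrase (0.49), MYB (0.76) and CTSD, cathepsin D (0.59), rose too. Of the CTSD exon bases, 41.7% overlap AC068580.4 on the same strand and 15.8% overlap AC068580.3 on the opposite strand. HNF4 targets rose in 4 of 11 (36.4% called, against 19.0% of all genes). CDH17, the liver-intestine cadherin, was at 530, 430 and 497 against 1711, 1422 and 1525 (1.68, adjusted p = 8.7e-05), while HNF4A itself had an estimate below 0. VIL1, villin, rose by 0.71 on the log2 scale, with 44% of its exon bases overlapping USP37, and SERPINA1, alpha-1-antitrypsin, by 0.64. ACSL5 (0.34, adjusted p = 0.0293) did not pass without control library 1 or any 1 BRD8 siRNA library (0.0692 to 0.0983).

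Of 22 tested PPAR targets 5 rose (22.7%, near the 19.0% of all genes), with a median of 0.07. HADHB, of mitochondrial fatty acid oxidation, rose from 4141 ± 273 to 6053 ± 35.4 (0.55, adjusted p = 0.0016), and ANGPTL4, an inhibitor of lipoprotein lipase, from 454 ± 78.8 to 852 ± 104 (0.91). PDK4 (0.37) did not pass without BRD8 siRNA library 2 or 3 (0.0509 and 0.0691), CPT2 (0.37) did not without control library 1 or 3 or BRD8 siRNA library 2 or 3 (0.0592 to 0.0798), and ACSL5 is given above. There were 8 when control library 2 was left out, where 34.1% of all genes were called. The count was 3 without control library 1 (12.2% of all genes) and 2 without BRD8 siRNA library 2 or 3 (10.2% each). Of 15 tested LXR targets 1 rose and 2 fell (20% called, near the 19.0% of all genes). PLTP, a phospholipid transfer protein, fell (416 ± 61.3 to 253 ± 19.8, -0.71). FASN, fatty acid synthase, fell (-0.38, adjusted p = 0.0436) but did not pass with any library left out other than control library 2 (0.0661 to 0.146).

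Clock genes and others with REV-ERB or ROR elements were tested for 17. Of these 1 rose and 4 fell (29.4% called, against 19.0% of all genes), beside NR1D2 that fell. E2F8, a cell-cycle factor of the E2F family, fell from 413 ± 14.7 to 284 ± 7.17 (-0.54, adjusted p = 0.00409). The period gene PER3 fell from 249 ± 45.7 to 138 ± 15.6 (-0.84, adjusted p = 0.00801). CLOCK (-0.59, adjusted p = 0.0252), BHLHE41 (-0.34, adjusted p = 0.0354) and BHLHE40, which rose (0.24, adjusted p = 0.0302), did not pass with any single library left out other than control library 2 (0.0595 to 0.106, 0.0524 to 0.111 and 0.0607 to 0.131), which leaves 2 lower. Of 7 tested thyroid hormone receptor targets 2 passed (28.6%, against 19.0% of all genes). ME1, malic enzyme, fell (863 ± 113 to 539 ± 50.6, -0.67), and SLC16A3 rose (0.73, adjusted p = 0.0109), not passing without control library 3 (0.0517). Of 23 tested estrogen-related receptor targets, PDK4 and VEGFA (0.23, adjusted p = 0.0414) rose (8.70% called, against 19.0% of all genes), with a median of -0.05. VEGFA did not pass with any library left out other than control library 2 (0.0656 to 0.17). The count higher was 1 without control library 1 (12.2% of all genes called), control library 3 (8.86%) or BRD8 siRNA library 1 (12.9%). None was higher without BRD8 siRNA library 2 or 3 (10.2% each). Without control library 2, where 34.1% of all genes were called, 2 targets fell.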

How the data were processed

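RNA of 6 Calu3 libraries was sequenced from a single end with a kit that does not mark strand, per the labels, whose extraction protocol names another bronchial epithelial cell; the sample labels were followed. STAR 2.6, featureCounts 1.6.3, DESeq2 1.22.1 and hg19 are named in the submitters' processing notes; no annotation or strand setting is given in these sources. The deposited values are a normalized signal, gene counts scaled by the authors with 1 size factor per library. Beside these the authors deposited, per gene, their comparison: log2 fold change with standard error, score of the test, and p-value before and after adjustment.

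Whole reads were recovered (100% of values whole within 0.01), and edgeR 4.0.16 on them called 2969 genes. The fit for normalized values, limma 3.58.1 (R 4.3.3, trended variance), used log2(normalized count + 1), which understates changes of low genes, for the 15354 genes averaging 10 or more, without covariates, with Benjamini-Hochberg adjustment over all of them and a threshold of 0.05. It called 2920 genes, and 5084 had an unadjusted p under 0.05. DESeq2 1.42.0 and other settings were alternatives. The test was also run on simulated data.

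Members and gene lists were chosen with earlier results of these data known, so no list is independent support. Named were all receptors, BRD8 and, from each list, up to 4 genes of smallest adjusted p under 0.05, plus genes behind counts of 5 or fewer, chosen after their values were seen (UGT1A1, TSC22D3, BHLHE41, HSD17B11, HSD17B12, SLC16A10, ALDH1A3, LRAT, CRABP2), and RDH10, CYP2R1, HSD17B2 and the AKR1C genes likewise. Intervals are 95% and cover counting and replicate error of these libraries. Promoters are from RefSeq on GRCh38.p14, lengths and exon overlaps from GENCODE release 29. Overlaps are not given for every gene that has one. Some genes named by the rule are not reported here.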

Additional observations from a re-analysis of the deposited data

How the results depend on the processing

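Each count was recomputed under 19 alternatives, listed here as higher and lower. After removal of the length and GC trend, 5 and 6 receptors, 2 and 15 coregulators, 16 target genes lower, and 2256 and 2700 of all genes passed. Without the variance trend, where 15.4% of all genes were called, 5 target genes were lower. With libraries left out in turn, the counts ran from 2 to 4 and 1 to 7 for receptors, 1 to 2 and 1 to 18 for coregulators, 10 to 17 and 2 to 5 for ligand genes, 27 to 51 and 4 to 12 for target genes, and 832 to 2445 and 528 to 2784 for all genes, highest without control library 2 and, for receptors and all genes, lowest without control library 3. The replicate numbers do not pair the samples by the rule used: deviations of same-numbered libraries correlated at -0.08, 0.34 and 0.15, and control library 1 correlated best with BRD8 siRNA library 3 (0.33). With the replicate number as a block, 6 and 5 receptors and 2 and 9 coregulators passed, beside 1939 and 1962 of all genes (25.4%). With the block and the trend removal together these were 6 and 9 receptors, 2 and 15 coregulators, 17 target genes lower, and 2380 and 2911 of all genes. The cause of these shifts was not tested.

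Of the values for single receptors, 20 changed sign, all of uncalled receptors. After removal of the trend, with or without the block, THRA was -0.021, RXRB -0.024 and NR4A3 0.025. NR4A3 was also 0.0082 with a pseudocount of 5, 0.087 in edgeR and 0.091 by DESeq2 as well as in the table deposited by the authors. With 1 library left out, THRA ran from -0.072 to 0.083, THRB from -0.017 to 0.20, RARB from -0.0023 to 0.16, RXRB from -0.043 to 0.19, NR1I3 from -0.37 to 0.76, ESR2 from -0.011 to 0.27 and NR4A3 from -0.41 to 0.33. Receptors near 10 normalized counts had the widest intervals: NR1I3, ESRRG, NR4A3 and ESR1.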
